A study of Mus musculus with 2 samples.

Results

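A splenic dendritic cell population marked by lymphotoxin beta (Ltb), the short-chain fatty acid receptor Ffar2 and the inhibitory receptor Sirpa was described in 2 single-cell libraries. Of 9934 cells kept, 697 met the rule that defines it. These were 83 of 4086 cells from L-cDC (2.03%, exact Clopper-Pearson 95% interval 1.62 to 2.51%) and 614 of 5848 cells from M-cDC (10.5%, 9.72 to 11.3%). The rule asked for at least 3 unique molecular identifiers (UMIs, each a counted transcript) of Sirpa, Clec4a4, Ffar2 and Ltb together. It allowed at most 2 UMIs in sum of Lyz2, Mgl2 and Clec10a, at most 2 of Siglech, Cd209d, Cd209e and Lag3, at most 2 of Nid1, Ryr3, Mdk and Crispld2, and at most 2 of Fscn1. Any UMI of Ccr7, Xcr1, Mki67, Top2a, Cd79a, Nkg7 or C1qa removed a cell. The members were therefore chosen on measured transcripts, and the levels of these genes and of all others in the same cells are given as descriptions.

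The cells came from the spleens of mice that carry Il7r-cre; Rosa26-lsl-tdTomato, 7 to 9 weeks old, naive and kept free of specific pathogens. In these mice Cre made under the Il7r locus removes a stop before tdTomato in the Rosa26 locus, so a cell stays red once it, or an ancestor, has made Cre. Both groups carry the same alleles. L-cDC are the tdTomato-positive and M-cDC the tdTomato-negative cells sorted after enrichment for CD11c, and each group was 1 library. How many mice went into each library is not given in the sources used here. The tdTomato transcript is not among the genes listed, so the sort could not be checked on it, and tdTomato records history and not present Il7r expression. With 1 library per group there is no replicate check, no test was made between L-cDC and M-cDC, and intervals cover counting error only.

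Conventional dendritic cells type 2 (cDC2) take up antigen and present it on MHC class II to CD4 T cells. In mouse spleen they include cells with the adhesion molecule ESAM, which depend on signals through the receptor Notch2 and the lymphotoxin beta receptor and sit in the bridging channels of the marginal zone, where the oxysterol receptor Gpr183 helps to place them. A second kind, low in ESAM, carries monocyte-associated genes such as Lyz2, Csf1r and Ccr2. Lymphotoxin beta is the chain that holds lymphotoxin at the cell surface, and signals from its receptor release the NF-kB subunit RelB. Ffar2 senses acetate and propionate, and Rgs2 shortens signals of G protein-coupled receptors.

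The start regions of the genes that gave the cells their name, and of Rgs2, are shown because Ltb and Ffar2 define the cells and Rgs2 was given as a further marker. Sequences are those of RefSeq on GRCm38.p6, 5′ to 3′ on the gene's own strand. They end at the base before the first base of the gene in the annotation of the files' build, which left out 68 bases for Ltb and 12 for Rgs2. Positions of matches are counted from the RefSeq start, so these left-out bases lie between the printed end and that start. Capitals mark matches to 3 motifs searched on both strands, the NF-kB motif GGGNNNNNCC, the RBPJ motif TGGGAA and the PU.1 motif GAGGAA. The windows are chr17:35194257-35194438 (plus strand) for Ltb, chr7:30823776-30824025 (minus strand) for the first of 4 listed Ffar2 starts, and chr1:144004162-144004399 (minus strand) for Rgs2.
Ltb: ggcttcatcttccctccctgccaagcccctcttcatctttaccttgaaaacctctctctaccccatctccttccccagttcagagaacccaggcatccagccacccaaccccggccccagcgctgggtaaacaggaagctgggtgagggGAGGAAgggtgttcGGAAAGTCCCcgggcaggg
Ffar2: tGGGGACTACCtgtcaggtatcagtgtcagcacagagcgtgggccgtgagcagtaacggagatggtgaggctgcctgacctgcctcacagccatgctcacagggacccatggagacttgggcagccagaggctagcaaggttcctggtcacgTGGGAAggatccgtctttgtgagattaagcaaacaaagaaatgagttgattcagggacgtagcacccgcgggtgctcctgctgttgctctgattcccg
Rgs2: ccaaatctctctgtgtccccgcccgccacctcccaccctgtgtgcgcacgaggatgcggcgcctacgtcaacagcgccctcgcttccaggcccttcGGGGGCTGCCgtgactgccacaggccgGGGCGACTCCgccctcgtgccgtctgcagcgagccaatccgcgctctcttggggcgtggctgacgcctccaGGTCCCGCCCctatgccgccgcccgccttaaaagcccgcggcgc
The Ltb window held 1 match to the NF-kB motif, on the reverse strand 87 to 78 bases before the RefSeq start, and a PU.1 match 101 to 96 bases before it. The Ffar2 window held 1 NF-kB match 249 to 240 bases and 1 RBPJ match 98 to 93 bases before its start. Rgs2 had 3 NF-kB matches and none of the other motifs. Such matches are common: of 32851 promoter windows cut to the same lengths, 33.6%, 45.8% and 43.9% held an NF-kB match at the Ltb, Ffar2 and Rgs2 lengths. An RBPJ match stood in 21.6% of windows of the Ffar2 length and a PU.1 match in 17.4% of windows of the Ltb length. A match describes letters only.

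The members had a median of 7819 UMIs and 2324 genes per cell in L-cDC and of 6684 UMIs and 2041.5 genes in M-cDC, and summed to 652871 and 4172742 UMIs. The whole libraries held 4939 and 6674 barcodes with 40170515 and 52973960 UMIs. The libraries shared 6 cell barcodes, none of them of a member. Levels below are UMIs per 1000000 UMIs of the members of a library (CPM) with exact Poisson 95% intervals.

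The 83 members of L-cDC were not of one kind. In L-cDC 7 members, and in M-cDC none, held at least 3 UMIs of 25 T cell, NK cell and innate lymphoid cell genes, with a median of 24 per cell. In those 7 cells the T cell receptor constant gene Trbc2 stood at 586 CPM and the CD3 chain Cd3g at 384 CPM, while the dendritic cell growth factor receptor Flt3 and Sirpa were at 0. Cd74, H2-Aa, H2-Ab1 and H2-Eb1 gave under 1% of the UMIs in 6 of the 7, with a median of 0.116%, against 4.87% in L-cDC members with a UMI of Ffar2 and 4.74% in such members of M-cDC. All 7 held enough UMIs of Ltb, which lymphocytes also make, to pass the rule on that gene alone. In full, 13 T cell genes summed to 233 CPM in L-cDC (2 at 0) and 13.7 CPM in M-cDC (6 at 0), and to 26.7 CPM in L-cDC once the 7 cells were left out. The 14 NK and innate lymphoid genes summed to 429 CPM (4 at 0) and 354 CPM (12 at 0), of which Klrd1 gave 355 and 354 CPM. The counts of genes and of most lists that differ, and the ratios of the genes described most fully, are therefore also given for other choices of cells. These are the members without these 7 cells, and the members with a UMI of Ffar2, 51 in L-cDC (1 of them among the 7) and 505 in M-cDC. Both ways of choosing cells were set after the data had been seen. Leaving out the 7 cells did not remove every member with under 1% of UMIs from Cd74, H2-Aa, H2-Ab1 and H2-Eb1. There remained 1 of 26 L-cDC members without Ffar2, at 0.219%, and 4 of 505 M-cDC members with Ffar2.

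Ltb (GRCm38 chromosome 17, 35194439 to 35196320) carried most of the rule. It averaged 1359 CPM (1271 to 1451) in L-cDC, against 1190 CPM (1157 to 1224) in M-cDC, was seen in 82 of 83 and 609 of 614 members, and gave 73.4% and 65.9% of the UMIs of the 4 defining genes. Without their Ltb UMIs, 35 members of L-cDC and 187 of M-cDC would have missed the rule. Thinned to 3000 UMIs per cell, 97.5% of 80 L-cDC and 93.7% of 590 M-cDC members showed a UMI of Ltb, against 18.1% and 18.3% of cells with at least 3 UMIs of Xcr1, the chemokine receptor of type 1 dendritic cells, whose median depths were 16277.5 and 14939 UMIs. Members were chosen on UMIs of Ltb and the Xcr1+ cells were not, so this gap follows from the rule.

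Ffar2 (chromosome 7, 30818348 to 30823775) averaged 268 CPM (230 to 311) in L-cDC, against 361 CPM (343 to 380) in M-cDC. It was seen in 51 of 83 members (61.4%) and in 505 of 614 (82.2%). After thinning the shares were 43.8% and 61.9%, against 0 of 160 and 5.67% of 617 Xcr1+ cells, a gap that the rule also favours. The lower L-cDC share also held without the lymphocyte-bearing cells, at 65.8% of 76 members before thinning and 46.6% of 73 after it.

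Sirpa (chromosome 2, 129592835 to 129632228), which binds CD47 and restrains phagocytosis, stood at 182 CPM (151 to 218) in L-cDC, against 211 CPM (197 to 225) in M-cDC, in 59 and 441 members. Clec4a4 (chromosome 6, 122990367 to 123024105), the C-type lectin known as DCIR2 or the 33D1 antigen of CD8-negative spleen dendritic cells, was thinly sampled at 41.4 CPM (27.2 to 60.2) and 44.8 CPM (38.6 to 51.7), in 22 and 157 members. All 4 genes were seen in 15 and 96 members, and a single one in 12 and 37. Ltb was that gene in 11 and 36 of these cells.

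Rgs2 (chromosome 1, 143999338 to 144004161), named as a marker but not used by the rule, averaged 588 CPM (531 to 650) in L-cDC, against 872 CPM (843.5 to 900.4) in M-cDC, a ratio of 0.675 (exact conditional binomial 95% interval 0.606 to 0.750). The ratio was 0.727 (0.652 to 0.808) without the lymphocyte-bearing cells and 0.833 (0.737 to 0.939) among members with Ffar2. Rgs2 was seen in 70.0% (58.7 to 79.7%) of thinned L-cDC members and 87.1% (84.1 to 89.7%) of thinned M-cDC members. It was also seen in 57.5% (49.4 to 65.3%) and 56.2% (52.2 to 60.2%) of Xcr1+ cells, so its presence was not particular to the members.

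**Figure D1:**
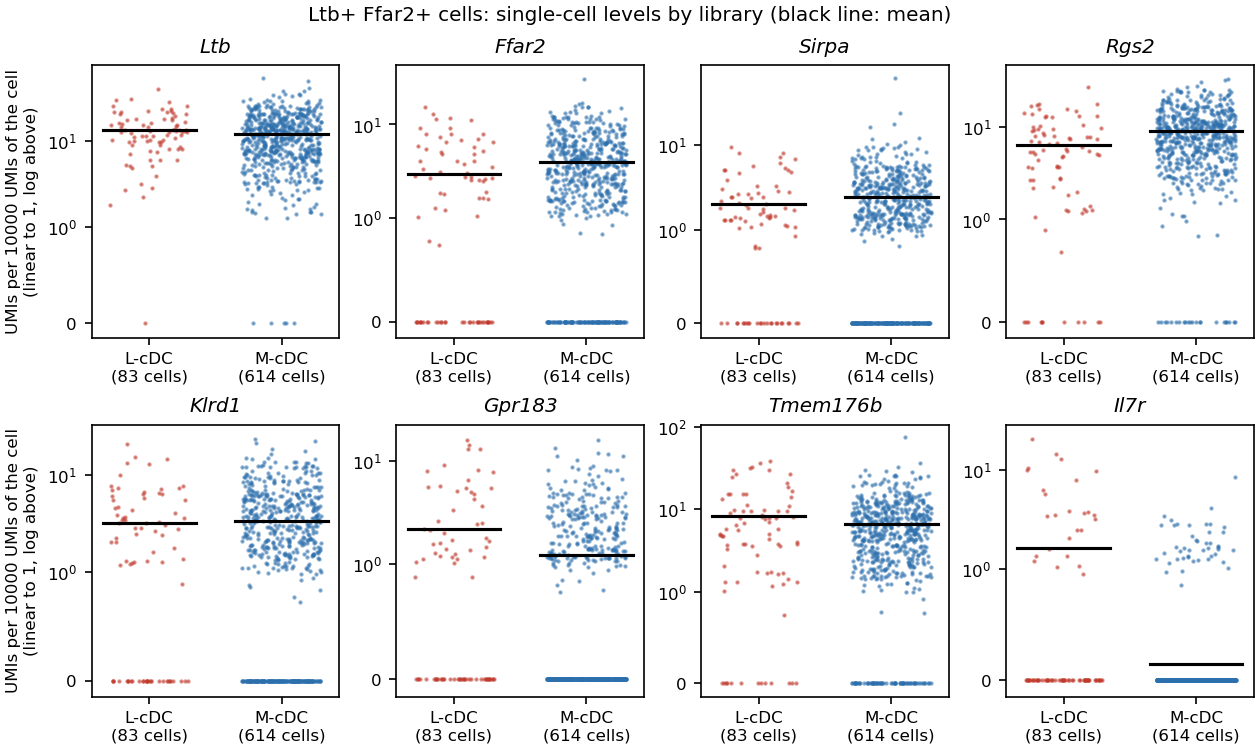
Each point is 1 member cell, 83 of L-cDC at left and 614 of M-cDC at right in each panel; the vertical axis gives UMIs per 10000 UMIs of the cell, linear up to 1 and logarithmic above, and the black line is the mean over cells. Ltb fills nearly every cell of both libraries, whereas Il7r shows a UMI in 26 of 83 L-cDC members and in 45 of 614 M-cDC members, and Gpr183 spreads higher in L-cDC.

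The word ESAM-high in the working name was checked on genes outside the rule, and Esam itself gave it little backing. Esam itself was seen in 0 of 83 members of L-cDC. A limit of 3 cells, or 3.61%, was set for this 0, which is not an exact Clopper-Pearson bound. Esam was seen in 37 of 614 members of M-cDC, at 10.3 CPM (7.46 to 13.9). In M-cDC it was higher, at 34.8 CPM, in 62 cells that failed only the gate on Nid1, Ryr3, Mdk and Crispld2. Cd4, the coreceptor carried by many ESAM-high cells, stood at 64.3 CPM (46.4 to 87.0) in L-cDC, against 47.9 CPM (41.5 to 55.1) in M-cDC. The Notch target Dtx1 was at 19.9 and 32.6 CPM, Tbx21, the T-bet factor of a splenic cDC2 subset, at 3.06 and 11.98 CPM, and Areg and Nrarp had no UMI in either library. Both Notch2 (39.8 and 41.5 CPM) and Ltbr (13.8 and 14.1 CPM) were detected.

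A list of 14 ESAM-high genes, which holds Ltb, Ffar2 and Clec4a4 of the rule, summed to 2638 CPM in L-cDC (3 genes at 0) and 2761 CPM in M-cDC (2 at 0), and one of 20 ESAM-low genes, which holds the gate genes Lyz2, Mgl2 and Clec10a, to 5125 and 5408 CPM. In cells that failed only the gate on those 3 genes the ESAM-high list summed to 1290 and 1433 CPM and the ESAM-low list to 12511 and 10681 CPM. In cells that failed only the gate on Nid1, Ryr3, Mdk and Crispld2 the sums were 2824 and 2731 CPM for ESAM-high and 6162 and 5355 CPM for ESAM-low genes. Both lists share genes with the rule, so these sums are no independent check of the label. Much of the ESAM-low sum in the members came from S100a4 (1947 and 1892 CPM), S100a6 (1357 and 1200.4 CPM) and Ifitm3 (679 and 1065 CPM). As Esam was at 0 in L-cDC and in few members of M-cDC, the cells are called Ltb+ Ffar2+ cells here.

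Genes of dendritic cell identity outside the rule were present in both libraries, not all of them particular to cDC2. Flt3 was seen in 46.25% of thinned L-cDC and 38.0% of thinned M-cDC members, against 32.5% and 36.6% of thinned Xcr1+ cells. Itgax, the CD11c chain, had 155 CPM in L-cDC, against 161 CPM in M-cDC, Flt3 had 195 and 166 CPM, and the cDC2 factor Irf4 had 39.8 and 31.2 CPM. Zbtb46, a factor of conventional dendritic cells, was at 38.3 CPM (24.8 to 56.5) and 58.5 CPM (51.4 to 66.3). The myeloid factor Spi1, which encodes PU.1, stood at 461 and 604 CPM. Kit, the stem cell factor receptor, reached 135 and 158 CPM. Klrd1, the lectin CD94 better known from NK cells, had 355 CPM (311 to 404) in L-cDC, against 354 CPM (336 to 373) in M-cDC, a ratio of 1.004 (0.870 to 1.15). Klrd1 was seen in 57.5% and 53.6% of thinned members against 5.63% and 6.48% of Xcr1+ cells, and at 312 and 345 CPM in the 50 and 505 members with Ffar2 that were not among the 7. Markers of other cell types differed in level. The sum of 12 macrophage genes was 47.5 CPM in L-cDC (9 at 0), against 65.9 CPM in M-cDC (5 at 0), and that of 11 erythroid and platelet genes 1.53 CPM (10 at 0) and 0. The sum of 12 B cell genes was 193 CPM (5 at 0) and 220 CPM (6 at 0), of which the immunoglobulin chain Ighm gave 126 and 157 CPM. For 14 monocyte and neutrophil genes it was 974 CPM (8 at 0) and 913 CPM (6 at 0), of which Plac8 gave 870 and 851 CPM.

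Lists of other dendritic cell states and of dividing cells were summed in the same way. The sum of 15 type 1 genes was 605 and 596 CPM in the same order (1 at 0 in each), led by Wdfy4 (165 and 212 CPM) and Batf3 (136 and 188 CPM), against 6950 and 7267 CPM in Xcr1+ cells. For 15 plasmacytoid genes it was 531 and 344 CPM (3 at 0 in each) and for 18 cell cycle genes 662 CPM (5 at 0) and 534 CPM (2 at 0), of which the tubulin Tubb5 gave 285 and 266 CPM. The sum of 17 genes of mature Ccr7+ cells was 3191 and 2664 CPM (1 at 0 in each), above the ESAM-high sum in L-cDC, with Ccl5 giving 896 and 983 CPM. The lists differ in genes and in size, so the order of their sums does not rank cell states. The part of such cells in the results was not tested.

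Ltb+ Ffar2+ cells were set beside cells that passed every part of the rule but 1 gate. This describes where the gates fall and tests nothing, since the gates were drawn in the same cells. A gene was considered at a minimum of 20 CPM in the higher set and 50 UMIs in all, and called where the fold was at least 2 in the same direction in both libraries. Against 29 L-cDC and 135 M-cDC cells that failed only on Lyz2, Mgl2 and Clec10a, 40 of 2301 genes were called higher in the Ltb+ Ffar2+ cells (1.74%) and 35 lower (1.52%). Of 10 considered ESAM-low genes 5 were lower and none higher, among them the chemokine receptor Ccr2 (47.5 against 363 CPM in L-cDC and 21.8 against 270 CPM in M-cDC, ratios of 0.131 and 0.081). The fractalkine receptor Cx3cr1 had ratios of 0.193 and 0.178, and Csf1r, the M-CSF receptor, 0.087 and 0.232. The second lysozyme gene Lyz1, a near copy of the gate gene Lyz2 that may share its reads, had 0 and 2 UMIs against 314 and 474.

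Higher than in that set were the transcription factor Sox4, at 181 against 16.04 CPM in L-cDC and 67.1 against 3.10 CPM in M-cDC (ratios of 11.3, 4.69 to 35.3, and 21.7, 8.37 to 80.1), and Cd7, a surface protein of lymphoid cells, at 253 against 35.3 and 200 against 39.5 CPM. Tbc1d4, a Rab GTPase-activating protein that governs glucose transporter traffic in muscle and fat, was the most abundant of those named, with 835 against 234 CPM (ratio 3.56, 2.79 to 4.61) and 991 against 307 CPM (ratio 3.23, 2.92 to 3.59). Tespa1, which takes part in T cell receptor signals in thymocytes, had ratios of 8.43 and 6.71, and the muscle-type enolase Eno3 5.93 and 6.59. Ppp1r14a, an inhibitor of myosin phosphatase, followed with 6.42 and 3.51, Sept1 with 8.23 and 4.01 and choline kinase Chka with 3.05 and 3.06. Klrd1 (ratios of 3.96 and 2.57), the chemokine Ccl5 (3.04 and 2.85) and Gpr183 (2.70 and 2.08) also passed. The L-cDC ratio of Ccl5 rests in part on 3 members that held 170 of its UMIs.

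Against 24 and 26 cells that failed only on Siglech, Cd209d, Cd209e and Lag3, 49 of 2175 genes were higher in the Ltb+ Ffar2+ cells (2.25%) and 22 lower (1.01%). Ccl5 was 6.46-fold and 5.75-fold higher, at 896 against 139 CPM in L-cDC and 983 against 171 CPM in M-cDC. Its L-cDC level rests in part on 3 members that held 170 UMIs. The L-cDC members with 10 or more UMIs of the defining genes had 640 CPM. Rgs1, another regulator of G protein signals, was 4.45-fold and 9.60-fold higher. All 3 considered genes of plasmacytoid dendritic cells were lower. These were their master factor Tcf4 (182 against 726 and 107 against 505 CPM), the gut-homing chemokine receptor Ccr9 (ratios of 0.080 and 0.092) and Bst2, the tetherin that marks them in naive mice (0.149 and 0.273). Klrd1 was below the set in both libraries, with ratios of 0.609 and 0.438, as was Gpr183 with 0.593 and 0.409, neither past the threshold.

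Against 19 and 62 cells that failed only on Nid1, Ryr3, Mdk and Crispld2, 14 of 1909 genes were higher (0.733%) and 20 lower (1.05%). Plac8, a small cysteine-rich protein of many leukocytes, was 9.72-fold (5.39 to 19.6) and 4.42-fold (3.50 to 5.66) higher, and Stmn1, a microtubule destabiliser of dividing cells, 11.1-fold and 9.18-fold on 1 and 2 UMIs in the set. Of 8 considered genes of mature dendritic cells 4 were lower and none higher, and of 10 NF-kB genes 2 were lower and none higher. Relb, the subunit that acts downstream of the lymphotoxin beta receptor, had 294 against 724 CPM in L-cDC (ratio 0.406, 0.314 to 0.528) and 277 against 813 CPM in M-cDC (0.340, 0.300 to 0.387). The fatty acid carrier Fabp5 had ratios of 0.324 and 0.386, and the lysosomal proteins Lamp1 and Cd63 0.268 and 0.355, and 0.089 and 0.277.

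**Figure D2:**
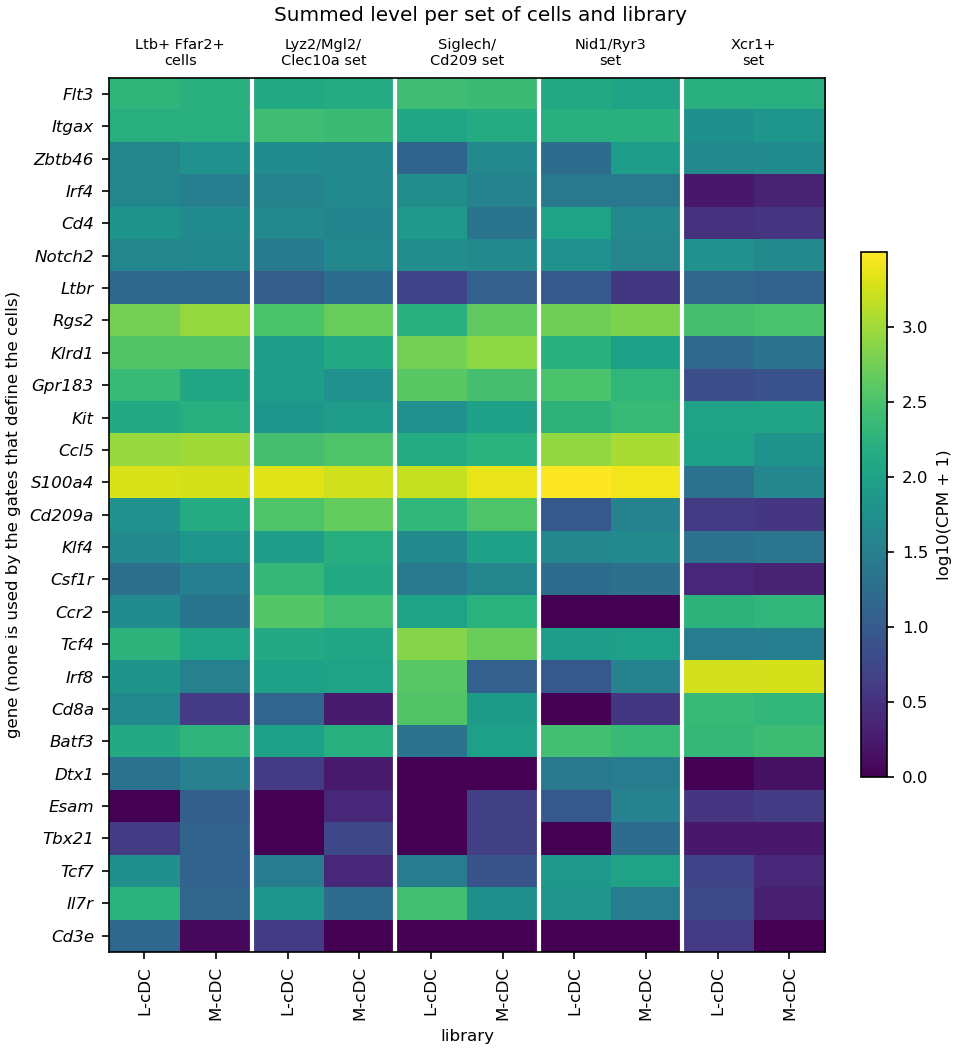
Rows are genes that no gate uses and columns are sets of cells in each library, the Ltb+ Ffar2+ cells first, then the cells that fail only 1 gate and the Xcr1+ cells; colour is log10 of CPM plus 1. Csf1r and Ccr2 are brightest in the Lyz2/Mgl2/Clec10a set, Tcf4 in the Siglech/Cd209 set and Irf8 in the Xcr1+ cells. Rgs2, Klrd1 and Ccl5 stand high in the Ltb+ Ffar2+ cells of both libraries, Ccl5 in L-cDC in part through 3 cells. Klrd1 is higher still in the Siglech/Cd209 set of both libraries, and Rgs2 is also seen in Xcr1+ cells. Against the Nid1/Ryr3 set none of 10 considered genes that tune G protein signals was called, nor the 1 considered chemokine.

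Members also differed among themselves. The L-cDC members split by whether a UMI of Ffar2 was seen, a split chosen after the values were known. The 26 L-cDC members without Ffar2 (none of them among the 7) had 455 CPM of Gpr183 (369 to 555), the 50 with it 112 CPM (80.8 to 150). M-cDC members without and with Ffar2 had 155 CPM (129 to 186) and 111 CPM (100 to 123). Flt3 was 296 CPM (227 to 378) and 166 CPM (128 to 212) in L-cDC cells without and with Ffar2, and 179 and 163 CPM in M-cDC. Of the 26 L-cDC members without Ffar2, 1 had 0.219% of its UMIs from Cd74, H2-Aa, H2-Ab1 and H2-Eb1. That cell had no UMI of Ltb, met the rule on 3 UMIs of Sirpa and held 4 of Il7r.

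The paired membrane protein genes Tmem176b and Tmem176a, named after their values were seen, followed the same split. Tmem176b was at 1708 CPM (1537 to 1893) and Tmem176a at 1647 CPM in L-cDC members without Ffar2, against 527 CPM (457 to 605) and 465 CPM in those with it. In M-cDC, members without Ffar2 had 821 CPM of Tmem176b and 831 CPM of Tmem176a, and members with it 600 and 567 CPM. At least 10 UMIs of Tmem176b were seen in 11 of 26 L-cDC members without Ffar2 (42.3%, 23.4 to 63.1%) and 6 of 50 with it (4.53 to 24.3%), and in 20 of 109 (18.3%) and 36 of 505 (7.13%) of M-cDC. Median depths were 8221 and 7642.5 UMIs in L-cDC and 6797 and 6681 UMIs in M-cDC.

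Sox4 (357 and 101 CPM in L-cDC members without and with Ffar2), Tmem123 (591 and 166 CPM), the sorting nexin Snx18 (141 and 23.4 CPM) and Il7r (230 and 38.95 CPM) showed the same order. In M-cDC the values were 125 and 54.0 CPM for Sox4, 128 and 121 CPM for Tmem123, 26.1 and 17.9 CPM for Snx18, and 11.8 and 13.5 CPM for Il7r. Cd8a, the coreceptor also carried by type 1 dendritic cells, was at 117 CPM in the L-cDC members without Ffar2 and had no UMI in the 50 with it. Lower without Ffar2 were Rgs2 (389 against 769 CPM in the L-cDC library, 715 against 907 CPM in the M-cDC library), Zbtb46 (9.38 against 57.1 CPM, then 44.4 against 61.6 CPM, in the same order of libraries) and Clec4a4 (14.1 against 62.3 CPM, then 28.7 against 48.4 CPM). Clec4a4 helps to choose members that lack Ffar2, so it is not free of the split.

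**Figure D3:**
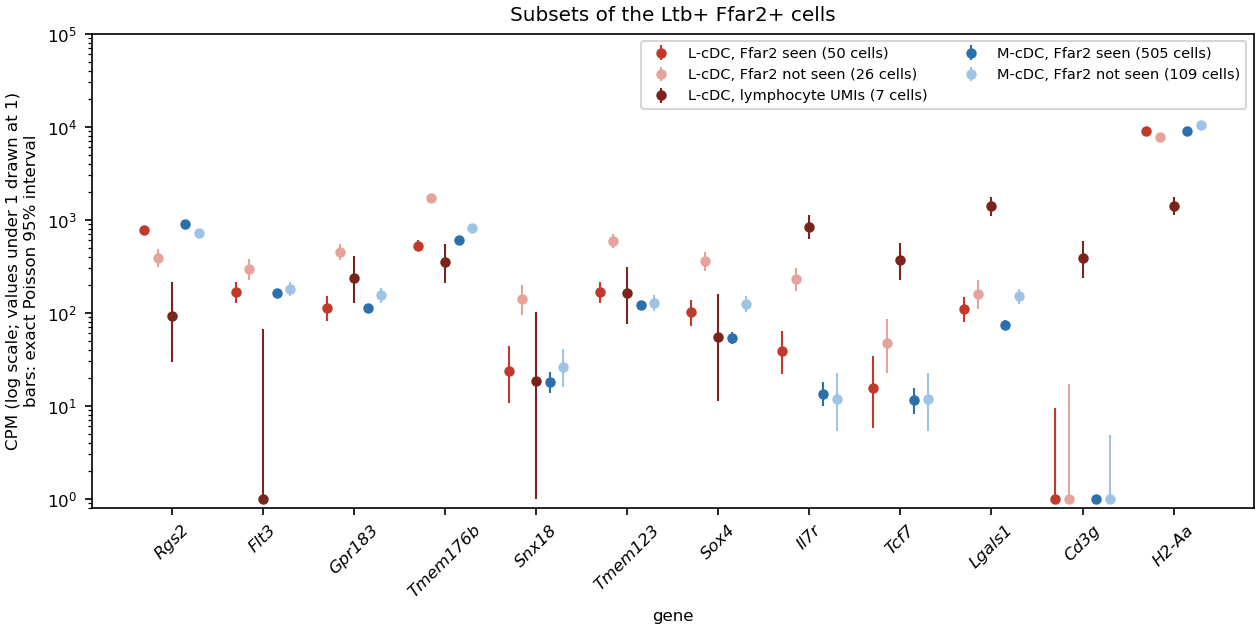
Points are CPM on a logarithmic axis with exact Poisson 95% intervals for 12 genes in 5 groups of Ltb+ Ffar2+ cells, L-cDC in reds and M-cDC in blues; a value under 1 is drawn at 1. L-cDC members without Ffar2 lie highest for Tmem176b (1708 CPM), Gpr183 (455 CPM), Sox4 (357 CPM), Tmem123 (591 CPM) and Snx18 (141 CPM), whereas the 7 lymphocyte-bearing cells lie highest for Il7r, Tcf7, Lgals1 and Cd3g and lowest for H2-Aa.

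After thinning to 3000 UMIs per cell, variation was read as variance over mean, among genes with a mean of at least 0.2 UMI. In L-cDC Gzmc (80.7), Malat1 and Xcl1 (28.5) stood highest, and Gzmc and Xcl1 had no UMI in thinned M-cDC members. The 10 highest genes of M-cDC, each also among the 50 highest of L-cDC, were Malat1, a nuclear RNA (variance over mean 32.7 in L-cDC and 34.97 in M-cDC), Ccl5 (14.9 and 5.10), the invariant chain Cd74 (11.8 and 7.98), Actb (11.0 and 4.25), Cst3 (7.93 and 4.49), Tmsb4x (7.51 and 6.096), H2-M2 (6.18 and 8.93), the histone Hist1h1b (4.41 and 3.99), Fabp5 (4.32 and 7.58) and the interferon-induced Ifitm1 (3.18 and 5.64). H2-M2, a non-classical class I gene, was seen in 7.50% and 5.59% of cells and Ifitm1 in 10.0% and 15.1%, so few cells held most of their UMIs. The defining genes varied less than these 10, with 1.77 and 1.87 for Ltb, 2.01 and 1.33 for Ffar2, 1.28 and 1.20 for Sirpa and 1.16 and 1.03 for Clec4a4, whose means were under 0.2 UMI. Rgs2, outside the rule, had 2.16 and 1.59.

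The comparison of L-cDC with M-cDC members asks whether cells of the same rule differ by reporter history. Of 5352 genes considered, 345 were at least 1.5-fold higher in L-cDC (6.45%) and 429 lower (8.02%), the median log2 ratio being -0.04 over all of them. The interval left out 1 for 211 and 231 of these. Without the lymphocyte-bearing cells 340 of 5434 genes were higher (6.26%) and 453 lower (8.34%). Among members with Ffar2 394 of 5433 were higher (7.25%) and 536 lower (9.87%). A gene past the threshold is one past this size in these 2 libraries.

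Il7r (chromosome 15, 9505788 to 9530176), the interleukin 7 receptor chain, stood furthest apart among genes not carried by a single cell. It had 168 CPM (139 to 203) in L-cDC, against 13.2 CPM (9.93 to 17.2) in M-cDC, a ratio of 12.8 (9.17 to 18.0). Of the 7 lymphocyte-bearing cells 5 held it. The ratio was 8.12 (5.57 to 11.9) without those cells and 5.84 (3.58 to 9.41) in members with Ffar2. The L-cDC members with Ffar2 include 1 of the 7 cells, which held 16 UMIs of Il7r. The other 50 held 15 UMIs, at 38.95 CPM (21.8 to 64.2), against 13.5 CPM (9.88 to 18.0) in M-cDC members with Ffar2. After thinning 16 of 80 L-cDC and 22 of 590 M-cDC members showed a UMI (11.9 to 30.4% and 2.35 to 5.59%), 12 of 73 in L-cDC without the lymphocyte-bearing cells, and 1 of 160 and none of 617 Xcr1+ cells. Il7r also drives the reporter that the sort used, so it is not independent of the groups.

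Tcf7, the T cell and innate lymphoid factor TCF-1, followed with 55.1 CPM in L-cDC, against 11.5 CPM in M-cDC (ratio 4.79, 3.02 to 7.54), and its ratio fell to 2.33 (1.23 to 4.17) without the lymphocyte-bearing cells, which held 366 CPM. The scaffold protein gene Ahnak (82.7 and 23.7 CPM) and galectin 1, Lgals1 (233 and 88.7 CPM), had ratios of 3.49 and 2.63. Without those cells the ratios were 1.62 (0.982 to 2.57) and 1.43 (1.10 to 1.84), and the 7 cells held 567 and 1391 CPM. For these 3 genes the level in the 7 cells moved with the result.

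For Sox4, Tmem123 and Snx18 the ratio was as large without the 7 cells and smaller among members with Ffar2. Sox4 had 181 and 67.1 CPM (ratio 2.69, 2.15 to 3.35), with 2.86 without the lymphocyte-bearing cells and 1.84 (1.27 to 2.61) in members with Ffar2. Tmem123 had 305 and 122 CPM (2.49, 2.11 to 2.94) and Snx18 61.3 and 19.4 CPM (3.16, 2.11 to 4.66), with 1.35 (1.02 to 1.76) and 1.28 (0.558 to 2.59) in members with Ffar2. Gpr183 behaved alike, at 234 and 119 CPM (1.96, 1.63 to 2.36), a ratio of 1.96 without the lymphocyte-bearing cells and 1.03 (0.738 to 1.405) in members with Ffar2. The silencing factor Ago1 had 26.0 and 8.15 CPM (3.20, 1.67 to 5.88) and kept a ratio of 2.60 (1.09 to 5.62) with Ffar2. The remaining 4 of the 12 highest genes named by rule were Rcbtb1 (3.00), heparanase Hpse (2.91), Xlr4a (2.76) and Cxxc5 (2.70), each at 35.2 CPM or less in L-cDC. Without the lymphocyte-bearing cells Rcbtb1 had a ratio of 2.85 and Hpse of 3.01, and among members with Ffar2 1.45 (0.548 to 3.25) and 1.67 (0.500 to 4.41). The 7 cells held 5 of the 16 L-cDC UMIs of Xlr4a and 7 of the 22 of Cxxc5, and without them the ratios were 2.07 (0.954 to 4.15) and 2.01 (1.05 to 3.63).

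Some larger differences came from single cells and fell outside the naming rule for that reason. Granzyme C, Gzmc, had 405 UMIs in 8 L-cDC members, 68.1% of them from 1 cell, and none in M-cDC. The chemokine Xcl1 had 108 UMIs in 5 L-cDC members, 79.6% from 1 cell, and none in M-cDC. Against a floor of 3 counts over the M-cDC members these are at least 863-fold and 230-fold higher. Apol7c, an apolipoprotein L gene, had 236 and 67.8 CPM (ratio 3.48, 2.84 to 4.25) with 35.1% of its L-cDC UMIs from 1 cell, and a ratio of 3.55 in members with Ffar2.

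The genes furthest lower in L-cDC were thinly sampled there, those named here in 3 to 7 cells. Dab2ip, a Ras GTPase-activating protein, had 6.13 CPM in L-cDC, against 37.1 CPM in M-cDC (ratio 0.165, 0.044 to 0.431), in 4 and 117 cells. The integrin chain Itgav (4.60 and 24.0 CPM, 0.192, 0.039 to 0.577), the chemokine Ccl6 (12.3 and 49.4 CPM, 0.248, 0.106 to 0.498) and the inhibitory lectin Cd22 (7.66 and 25.9 CPM, 0.296) were among them. Cdkn2aipnl, Skint3, Ice1, Stk32c, Ubac1, Pgghg and Vps9d1 had ratios between 0.269 and 0.304. These 11 ratios stayed below 1 without the lymphocyte-bearing cells, from 0.180 to 0.323, and in members with Ffar2, from 0.117 to 0.452.

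Signals that are known to shape ESAM-high cells were read as fixed lists, whose members were chosen with earlier results of these data known. Over all considered genes 6.45% were called higher and 8.02% lower, and the counts below are to be read beside these shares. None of 19 considered NF-kB genes was called higher or lower in L-cDC, and their median log2 ratio was 0.03, with summed levels of 2546 CPM in L-cDC, against 2519 CPM in M-cDC. Relb was at 294 CPM (254 to 339) in L-cDC, against 277 CPM (261 to 293) in M-cDC, and its partner Nfkb2 at 87.3 and 71.2 CPM. Without the lymphocyte-bearing cells 2 of the 19 were higher, the adaptor Traf3 (1.62, 1.05 to 2.43) and Rela (1.51, 0.991 to 2.24), and among members with Ffar2 2 were higher and 1 lower. None of 10 genes that process or modify Notch receptors was called. Of 4 nuclear Notch genes 2 were lower, Dtx1 (ratio 0.611, 0.317 to 1.08) and the corepressor Spen (27.6 and 43.1 CPM, 0.639, 0.370 to 1.04), both with intervals that hold 1 (0.462, 0.207 to 0.902, and 0.465, 0.236 to 0.833, without the lymphocyte-bearing cells), while the Notch partner Rbpj stood at 106 and 104 CPM. Of the lymphotoxin and TNF ligands and receptors, 2 of 7 were higher. The ligand Tnfsf8 had 36.8 and 17.0 CPM (2.16, 1.30 to 3.47) and a ratio of 1.38 without the lymphocyte-bearing cells, and the receptor Tnfrsf1b 36.8 and 20.9 CPM (1.76, 1.07 to 2.80).

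Among 11 G protein-coupled receptors for lipids and metabolites, 2 were higher in L-cDC and 2 lower. The leukotriene receptor Cysltr1 (23.0 and 11.0 CPM, ratio 2.08, 1.36 without the lymphocyte-bearing cells) and Gpr183 were higher. The succinate receptor Sucnr1 (16.9 and 34.5 CPM, 0.488, 0.238 to 0.900) and the lysophosphatidylserine receptor Gpr34 (52.1 and 83.9 CPM, 0.621, 0.423 to 0.884) were lower. Of 17 genes that tune G protein signals, the receptor kinase Grk6 was higher (2.13, 1.28 to 3.42) and Rgs3 lower (0.619, 0.419 to 0.885).

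Antigen presentation genes lay close together. None of 14 considered class II genes was called, with a median log2 ratio of -0.19, which was -0.09 without the lymphocyte-bearing cells and 0.02 among members with Ffar2. H2-Aa was at 7966 and 9292 CPM, and its ratio was 0.857 (0.833 to 0.883), 0.922 and 0.977 in the same order. H2-Oa, a chain of the H2-O complex that restrains peptide loading, had 397 and 532 CPM (0.746, 0.653 to 0.848). Of 15 class I genes 1 was higher, the peptide editor Tapbpl (42.9 and 28.0 CPM, 1.53, 0.975 to 2.33).

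Of 12 costimulatory and checkpoint genes Cd83, which stabilises class II at the surface, was higher at 106 and 66.9 CPM (1.58, 1.20 to 2.06), and the PD-1 ligands Pdcd1lg2 (7.66 and 22.8 CPM, 0.336) and Cd274 (42.9 and 64.7 CPM, 0.663, 0.432 to 0.980) were lower. Cd83 turned to a ratio of 0.875 (0.543 to 1.35) in members with Ffar2, and 26.1% of its L-cDC UMIs came from 1 cell.

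Pattern recognition genes included no higher gene and 4 lower ones of 14, and 5 lower without the lymphocyte-bearing cells and 2 among members with Ffar2, beside 8.02% lower of all considered genes. The lectin Cd209a, of the DC-SIGN family, had 58.2 CPM (41.2 to 79.9) in L-cDC, against 140 CPM (129 to 152) in M-cDC, a ratio of 0.416 (0.291 to 0.578), in 15 and 194 members. The ratio was 0.454 without the lymphocyte-bearing cells and 0.670 (0.455 to 0.956) among members with Ffar2. Tlr13, a sensor of bacterial ribosomal RNA (0.487), the lectin Clec4a3 (0.492) and Tlr1 (0.603) were the other 3.

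Of 19 interferon-stimulated genes none was higher and 4 lower, where 8.02% of all considered genes were lower, with a median log2 ratio of -0.24. Without the lymphocyte-bearing cells 6 of 19 were lower and the median was -0.42, and among members with Ffar2 5 were lower and 1 higher, with a median of -0.29. The antiviral membrane protein Ifitm3 had 679 CPM (617 to 745) and 1065 CPM (1034 to 1097), a ratio of 0.637 (0.577 to 0.703), which was 0.818 (0.729 to 0.915) in members with Ffar2. The nuclease Isg20 (0.426, 0.191 to 0.833) and Xaf1 (0.577, 0.300 to 1.02) were also lower.

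Immediate early and stress genes, which can also respond to how tissue is handled, included 5 lower and 2 higher of 24, beside 8.02% and 6.45% of all considered genes, with a median log2 ratio of -0.30. Fosb had 38.3 and 99.7 CPM (0.384, 0.246 to 0.575), Egr1 49.0 and 106 CPM (0.461, 0.311 to 0.660), Fos 72.0 and 125 CPM (0.577, 0.418 to 0.778) and the phosphatase Dusp1 38.3 and 73.6 CPM (0.520, 0.332 to 0.783). In members with Ffar2 the ratios were 0.469, 0.682, 0.849 and 0.474 in that order.

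Lists of other dendritic cell states are again given beside 6.45% higher and 8.02% lower of all considered genes. Of 6 considered type 1 genes Irf8 was higher and none lower, with a median log2 ratio of -0.12, and without the lymphocyte-bearing cells none was called and the median was -0.18. Of 7 considered plasmacytoid genes 3 were higher and none lower (median log2 ratio 0.55), namely Tcf4 (182 and 107 CPM, 1.70, 1.38 to 2.08), Ccr9 (21.4 and 12.5 CPM, 1.72, 0.881 to 3.15) and Lag3, a gate gene (47.5 and 24.0 CPM, 1.98). None was called among members with Ffar2, where Tcf4 had a ratio of 1.46 (1.08 to 1.94). Of 12 genes of mature Ccr7+ cells 5 were higher and 1 lower (median 0.27), among them Il4i1, an amino acid oxidase (372 and 214 CPM, 1.74, 1.51 to 2.01), Anxa3 (88.8 and 41.7 CPM, 2.13, 1.55 to 2.88), Tmem123 and the gate gene Fscn1 (78.1 and 46.3 CPM, 1.69). Among members with Ffar2 1 was higher, the median was 0.05 and Il4i1 had a ratio of 1.16 (0.910 to 1.46). Of 6 cell cycle genes Stmn1 (1.84, 1.35 to 2.47) and the histone Hist1h2ap (1.78, 1.37 to 2.29) were higher. The type 1 factor Irf8 had 62.8 and 32.1 CPM, with 51.2% of its L-cDC UMIs from 1 cell.

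Of 15 cDC2 genes none was higher and 2 lower, Cd209a and Zbtb46 (0.655, 0.416 to 0.990), whose ratio was 0.95 in members with Ffar2. Of 13 ESAM-low genes 2 were higher and 3 lower. Lower were Ifitm3, Csf1r (18.4 and 30.9 CPM, 0.595, 0.299 to 1.07) and the orphan receptor Gpr141 (26.0 and 68.1 CPM, 0.383). Higher were Ccr2 (47.5 and 21.8 CPM, 51.6% of its L-cDC UMIs from 1 cell) and Cx3cr1 (29.1 and 17.3 CPM, 1.69). Both also counted among 5 chemokine receptors, of which 3 were higher, the third being Ccr9. Of 9 ESAM-high genes Gpr183 was higher and Dtx1 lower. Of 6 chemokines Ccl6, Ccl9 and Cxcl9 were lower and Cxcl16 (35.2 and 23.5 CPM) and Cxcl10, all of whose L-cDC UMIs came from 1 cell, were higher, and none of 4 cytokines was called. Among 26 transcription factors of dendritic cells Tcf4, Irf8 and Batf were higher and Zbtb46 and Klf4 (44.4 and 67.1 CPM, 0.662, 0.435 to 0.972) lower. Without the lymphocyte-bearing cells Tcf4 alone was called of the 26, with ratios of 1.46 for Irf8, 0.892 for Batf, 0.686 for Zbtb46 and 0.673 for Klf4, and among members with Ffar2 2 were higher and 2 lower. Among 15 growth factor receptors Il7r was higher and Csf1r and Il4ra (10.7 and 21.3 CPM, 0.503) lower. Of 5 early lymphoid genes 3 were higher, Il7r, Tcf7 and Ccr9. Selplg, the selectin ligand PSGL-1, was lower at 85.8 and 150 CPM (0.574, 0.428 to 0.755), as were Itgav and Pecam1 of 14 adhesion genes, while Itgal was higher (1.55, 0.948 to 2.44). None of 40 respiratory chain genes and none of 13 mitochondrially encoded genes was called, and 2 of 87 ribosomal protein genes were higher.

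The counts of other lists moved with the choice of cells. Plasmacytoid genes gave 3 higher and 1 lower of 7 without the lymphocyte-bearing cells, and mature Ccr7+ genes 5 higher and none lower of 12. Cell cycle genes gave 3 higher of 6, and 1 higher of 6 with Ffar2. Chemokines gave 1 higher and 3 lower of 5, and with Ffar2 1 higher and 2 lower of 4. Type 1 genes gave 1 higher of 5 with Ffar2. Without the lymphocyte-bearing cells 1 of 10 lipid and metabolite receptors was higher and 2 lower, and with Ffar2 1 of 11 was higher and 1 lower. For the genes that tune G protein signals both choices gave 1 higher and 1 lower. Costimulatory and checkpoint genes gave 1 higher and 1 lower without the lymphocyte-bearing cells, and 2 lower with Ffar2. Immediate early and stress genes gave 1 higher and 5 lower, and 5 lower of 25 with Ffar2. Of the cDC2 genes 1 was lower without the lymphocyte-bearing cells and 1 higher with Ffar2. ESAM-low genes gave 1 higher and 2 lower, and with Ffar2 2 higher and 1 lower of 11, while ESAM-high genes gave 1 higher and 2 lower under both choices. Growth factor receptors gave 1 higher and 2 lower, and 1 of each with Ffar2, and adhesion genes 1 higher and 4 lower under both. No lymphotoxin or TNF ligand of 2 was called without the lymphocyte-bearing cells, and 1 was higher with Ffar2. Their receptors gave 2 higher of 5 under both. Respiratory chain genes gave 1 lower of 40, and 2 higher and 1 lower with Ffar2. Early lymphoid genes gave 3 higher of 5 without the lymphocyte-bearing cells and 2 of 4 with Ffar2. Chemokine receptors gave 2 higher of 5 without the lymphocyte-bearing cells, and none of 2 was called with Ffar2. The L-cDC members with Ffar2 include 1 lymphocyte-bearing cell, with 7 UMIs of Tcf7 and 16 of Il7r. The other 50 together held 6 and 15, so the early lymphoid count with Ffar2 rests partly on that cell.

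**Figure D4:**
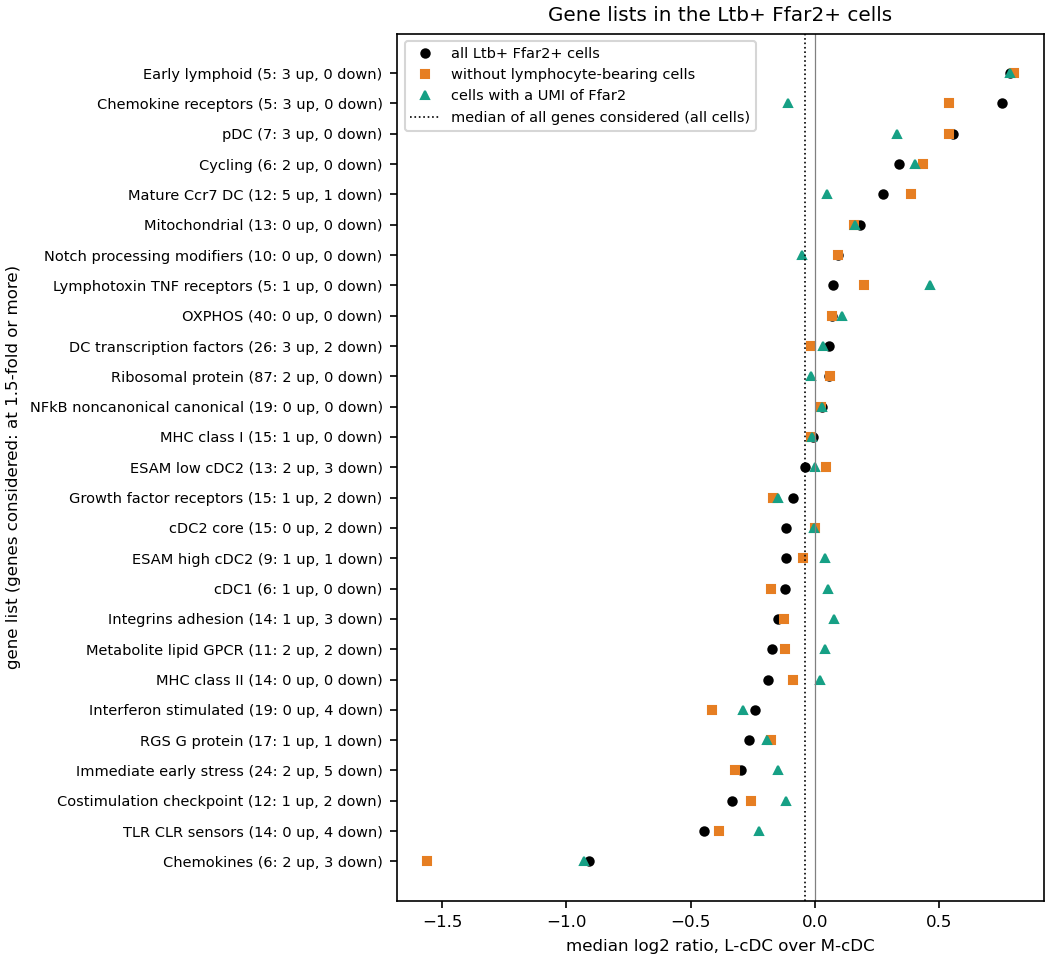
Rows are gene lists with at least 5 considered genes, and the horizontal axis is their median log2 ratio of L-cDC over M-cDC in all Ltb+ Ffar2+ cells (black), without the 7 lymphocyte-bearing cells (orange) and in members with a UMI of Ffar2 (green); up and down in the row names count genes at least 1.5-fold higher or lower in L-cDC. The early lymphoid list stays to the right in all 3 and the interferon-stimulated list to the left, while the class II and mature Ccr7+ lists move toward 0 among members with Ffar2. The green points still include 1 of the 7 lymphocyte-bearing cells, which weighs on the early lymphoid list.

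At the edge of the rule, 3 L-cDC and 22 M-cDC members had exactly 3 UMIs of the defining genes, and 8 and 16 cells missed it with 2. Rgs2 was at 114 CPM on 2 UMIs in the L-cDC cells just inside and 542 CPM in those just outside, and at 519 and 733 CPM in M-cDC, whereas cells with 10 or more had 613 and 865 CPM. The cells just outside were shallower, with medians of 1667 and 4764.5 UMIs against 3510 and 5218 just inside. Of the cells that met every other gate, 43.2% in L-cDC and 86.4% in M-cDC reached 3. The gate on Nkg7, a cytotoxic granule gene, alone removed 70 cells in L-cDC and none in M-cDC.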

How the data were processed

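Per the labels' protocols, cells were captured with the 3′ droplet chemistry of 10x Genomics, and reads came from an MGI sequencer. The deposited count tables give unnormalised UMIs of each gene in each barcode. Per the file headers they were made with Cell Ranger 6.1.2, on GRCm38 (mm10) per the submitters' processing notes, with 31053 genes listed; names and barcodes came from the deposited companion files. Intronic reads and strand handling are not given in the sources used here, so overlapping genes cannot be told apart.

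Barcodes with at least 500 genes and at most 10% mitochondrial UMIs were kept and the gates applied to raw counts. Counts were summed per library and set and scaled to CPM, with exact Poisson, binomial and Clopper-Pearson 95% intervals. These cover counting error only. Genes reaching 20 CPM in 1 library and 50 UMIs in both together were considered, and called at 1.5-fold, and a set at 0 was put at a floor of 3 counts for a ratio. No p-value was made. Doublets were not removed; removal with Scrublet (expected rate 0.08, the lower automatic threshold of 0.258 in both libraries, which marked 3 and 1 members) was an alternative. Comparisons of shares across depths used cells thinned to 3000 UMIs, which left out 3 L-cDC and 24 M-cDC members.

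The text names the 12 highest and 12 lowest considered ratios whose interval leaves out 1 and of which no cell gives 20% or more of the UMIs in the higher library, the 8 highest and 8 lowest against each set, the 10 most variable genes, up to 4 genes per list and the gate genes with some lineage genes, other than unnamed models and the families of immunoglobulin, T cell receptor, hemoglobin, mitochondrial, ribosomal and sex-linked genes. Some genes that the rule names are not reported here. Genes described outside this rule were chosen after their values were seen. The members and gene lists were chosen with earlier results of these data known. The ratio and its interval were tested on simulated Poisson counts at the members' summed depths. Such counts hold no spread between cells, so this checks the computation and not how well the intervals suit these data. Coordinates came from GENCODE vM21 for GRCm38, which held 202 of 202 identifiers looked up. Scripts ran in Python 3.11.15 with scanpy 1.11.5, pandas 2.3.3, scipy 1.17.1, matplotlib 3.10.9 and numpy 2.4.6.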

Additional observations from a re-analysis of the deposited data

How the results depend on the processing

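With 1 library in each group, no library could be left out, and no sample-level test was made. No paired analysis was possible because each group has 1 library, so the replicate number 1 that both carry leaves a single pair. The choices without lymphocyte-bearing cells and with a UMI of Ffar2 were added after seeing the data. The share of members was 1.25% in L-cDC and 8.64% in M-cDC when a UMI of Ffar2 was required, and 3.96% and 12.6% when cells were thinned to 3000 UMIs before the gates, which also lets gate genes drop out. The other 6 choices moved neither share beyond its interval. Genes higher in L-cDC numbered 85 at a minimum of 50 CPM, against 345. Genes lower numbered 682 at 5 CPM and 112 at 50 CPM, against 429. Over sets that began at 6 UMIs of their gate, which hold fewer cells, members were higher for 93 and lower for 36 genes in the Siglech set and higher for 41 in the Nid1 set. Log2 ratios that changed sign were those of Cxcl10 (-0.72 at 5% mitochondrial UMIs, -0.67 with 2 defining genes seen, -0.66 without lymphocyte-bearing cells, -0.21 with Ffar2), Ets1 (-0.21, -0.62 and -0.013 under the last 3), Ms4a4b (-0.39) and Batf (-0.16), both without lymphocyte-bearing cells, Irf8 (-0.11 under thinned gates) and Cd83 (-0.19 with Ffar2). The cause was not tested. Of the 10 variable genes 9 were named again at 5000 UMIs. The number of cells limits the L-cDC side most: its 83 members summed to 652871 UMIs, against 4172742 in the 614 members of M-cDC.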
